A study of Mus musculus with 17 samples.

Results

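The genes described here are 38 listed genes of the nucleolus and of ribosome biogenesis, with Npm1 at their head. They were found by symbol among the 56305 gene identifiers of the count tables, and all 38 were present and were among the 16666 genes tested. They encode nucleolar phosphoproteins, small nucleolar ribonucleoprotein (snoRNP) proteins, RNA polymerase I and its factors, MYC and MAX, and assembly factors of both ribosomal subunits. Total RNA of mouse bone marrow was measured in 3 summed Mt1ko samples of 9 libraries and 3 summed control samples of 8 libraries. The Mt1ko samples carried Dnmt3aR878H/+, Npm1cA/+ and a CRISPR-Cas9 knockdown of metallothionein 1, and the control samples carried Dnmt3aR878H/+ and Npm1cA/+ without the knockdown. The animals were C57BL/6 mice with acute myeloid leukaemia, so both groups shared the leukaemia and both mutant alleles. The sources used here do not give the guide, the cells edited, the ages or the number of mice behind a sample, and each library is titled as a technical replicate. The p-values below therefore measure the spread between the summed samples, which may be partly technical.

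Ribosomes are built in the nucleolus, where RNA polymerase I transcribes the ribosomal RNA precursor and snoRNPs guide its methylation and pseudouridylation before assembly factors fold and trim it. Nucleophosmin, the product of Npm1, is an abundant nucleolar chaperone that moves between nucleolus and cytoplasm. The cA allele encodes a form that is held in the cytoplasm and is a frequent lesion of human acute myeloid leukaemia. MYC with its partner MAX is known as an activator of many of these genes.

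The libraries held 27124722 to 38645072 counts each and the sums 64247249 to 106407001. Values of samples are CPM, or counts scaled to a common library total, adjusted by the TMM method, and values after ± are standard deviations (SD) over the 3 samples of a group. Mt1, the targeted gene, stood at 106.8 ± 56.8 CPM in Mt1ko and 384.2 ± 49.1 CPM in control. Its log2 fold change was -1.85 (SE 0.34; edgeR quasi-likelihood adjusted p = 1). Library 6, labelled Mt1ko and part of sample Mt1ko 4-6, held 326.2 CPM of Mt1, against 41.8 to 87.2 CPM in the other 8 Mt1ko libraries and 347.5 to 471.3 CPM in control. Libraries 10 to 12, which make up sample Mt1ko 10-12, stood apart in RNA composition and in the number of genes with a count. Their share of counts from mitochondrial ribosomal RNA was 21.9% to 30.2%, and that of the other 14 libraries 4.58% to 11.2%. At totals within the range of the others, they held 11548 to 13174 genes with a count, against 14823 to 17739 in the other 14. The TMM factor was 0.85 in sample Mt1ko 10-12 and 1.00 to 1.05 in the other 5, so scaling raised the CPM of that sample above its library values. Summed mast cell markers were 420.0, 5433 and 169 CPM in Mt1ko samples 4-6, 10-12 and 16-18, and 243, 855 and 690.1 CPM in control samples 1-3, 7-9 and 14-15. Monocyte and macrophage markers summed to 8974 to 11365 CPM in Mt1ko and 9379 to 10856 CPM in control, and the summed B cell markers did not exceed 4.13 CPM in any sample. Neutrophil markers summed to 192 to 364 CPM in Mt1ko and 226 to 395 CPM in control, and erythroid markers to 73.0 to 103 CPM in Mt1ko and 49.8 to 138 CPM in control. Megakaryocyte and platelet markers did not overlap as a sum, at 201, 322 and 253 CPM in the Mt1ko samples and 185, 106 and 162 CPM in the control samples. All 6 tested markers of that set had a positive log2 fold change (median 1.41), 0 were called by edgeR, 0 had an unadjusted p under 0.05 and 0 did not overlap singly. The median over that set of log2(CPM + 1) less the control mean was 0.14, 2.00 and -0.08 in the Mt1ko samples. It was -0.17, -0.04 and 0.22 in the control samples, so by this measure the groups overlapped. Of 12 tested mast cell markers, 11 had a positive log2 fold change (median 1.67), and 0 were called. In bulk RNA, fewer cells of a type and less RNA per cell cannot be told apart.

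None of the 38 genes passed the test of Mt1ko against control. With edgeR, the quasi-likelihood test called 0 of 38 at an adjusted p under 0.05, beside 0% of the 16666 genes. That test did not call Mt1 either, at a log2 fold change of -1.85, so 0 calls do not show that the members were unchanged. DESeq2 and limma-voom also called 0 of the 38, with backgrounds of 0.00600% and 0%. At an unadjusted p under 0.05, edgeR gave 1 member, or 2.63%, beside 1.03% of all genes. That member was Nhp2, a protein of the H/ACA snoRNP, and it was also the 1 member of 38 whose 3 Mt1ko samples did not overlap the 3 control samples, beside 7.10% of all genes. The log2 fold change was positive in 23 members and negative in 15, with a median of 0.09, beside a median of -0.01 and 48.3% positive over all genes. Scaled by library totals alone, 18 members were positive and 20 negative, the median of the members was -0.018 and that of all genes -0.12. Ncl, Nop58, Pes1, Polr1c and Rrp12 were the 5 members that turned negative. The values ran over -0.48 for Wdr74 to 0.50 for Nhp2, and 30 members lay within 0.25 of 0. With library 6 left out the median was 0.09, without sample Mt1ko 10-12 it was 0.08, and without sample Mt1ko 4-6 it was -0.02, with 18 members positive.

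The 95% intervals of these genes were narrower at the median than those of all tested genes, which include many genes of low level. In 34 of the 38 members the mean over the 6 samples was at least 10 CPM. Changes beyond 2-fold, or 1 log2 unit, lay outside the 95% interval in 31 members (81.6%) and in 45.3% of all tested genes. The median distance between the estimate and either end of the interval was 0.47 log2 units over the members and 0.90 over all genes.

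**Figure D1:**
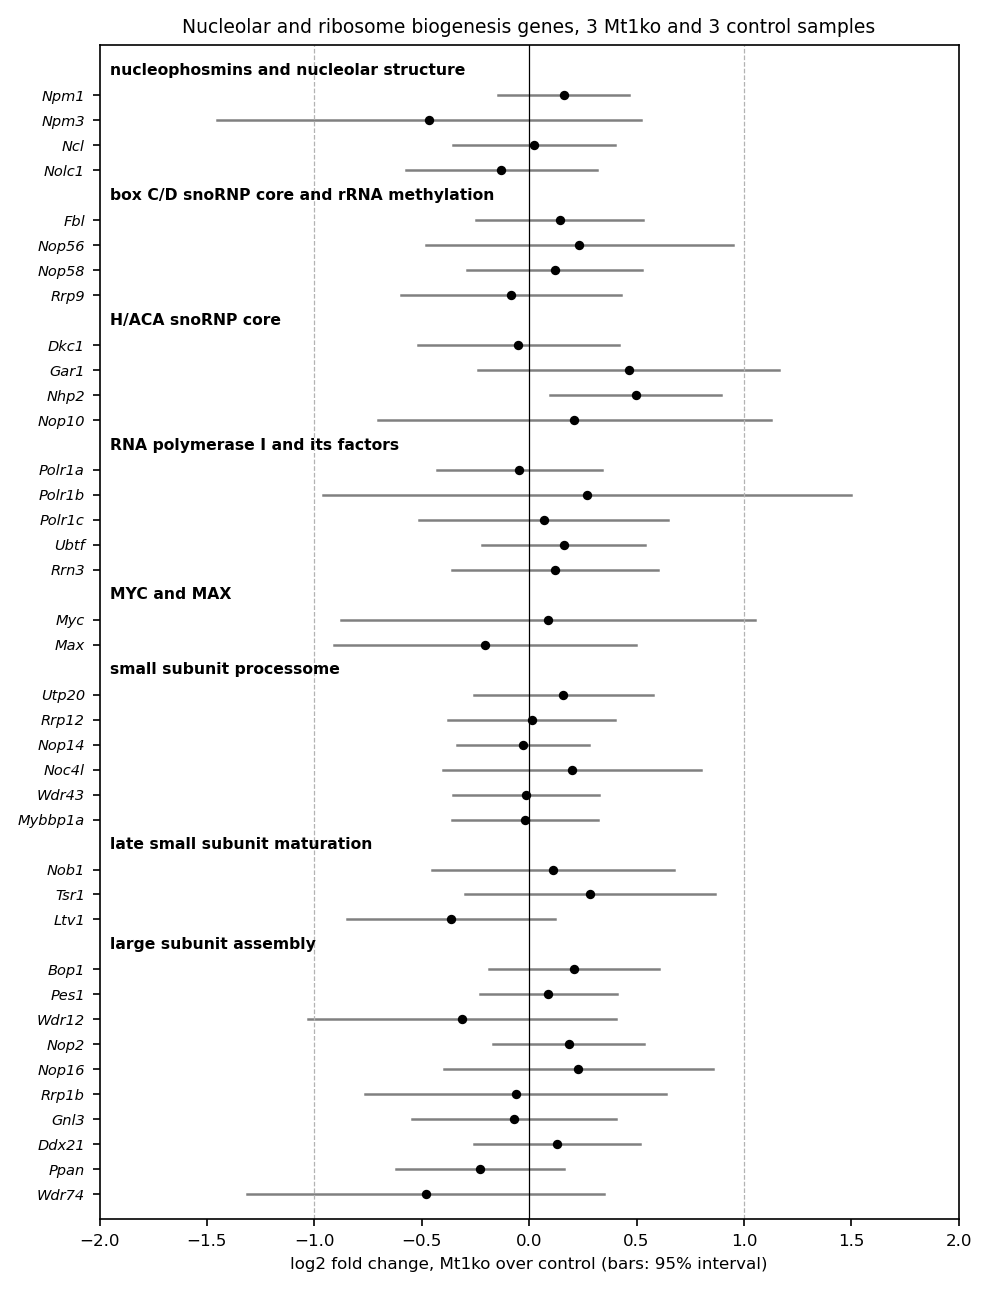
Log2 fold change of Mt1ko over control for each of the 38 genes, grouped by role, with bars for the 95% interval of the edgeR fit on 3 samples a group. The interval of Nhp2, 0.10 to 0.89, lies above 0, and the points run over -0.48 for Wdr74 to 0.50 for Nhp2.

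Npm1 (ENSMUSG00000057113; GRCm38 chromosome 11, 33152287 to 33163206, minus strand, protein-coding) held 322, 265 and 276 CPM in Mt1ko samples 4-6, 10-12 and 16-18, against 278, 245 and 249 CPM in control samples 1-3, 7-9 and 14-15. The groups overlapped, with 1 Mt1ko sample above and 2 below the highest control sample. The means were 288 ± 30.1 CPM in Mt1ko and 257 ± 18.4 CPM in control, and the log2 fold change was 0.16 (95% interval -0.14 to 0.47, SE 0.13). It was 0.071 without sample Mt1ko 4-6 and 0.049 with library totals in place of TMM scaling. The 9 Mt1ko libraries ranged over 198 to 331 CPM with a median of 292 CPM, and the 8 control libraries over 233 to 290.0 CPM with a median of 279 CPM. The gene was counted as 1 row, so the transcripts of the Npm1cA allele and of the normal allele cannot be told apart here. Reads that Npm1 shares with near-identical copies elsewhere may also have been split or lost, which leaves its level uncertain.

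The other 3 genes of nucleolar structure did not pass either. Npm3, a nucleoplasmin family relative that binds nucleophosmin, held 15.6, 4.44 and 11.1 CPM in the Mt1ko samples and 14.1, 13.3 and 15.7 CPM in the control samples. Sample Mt1ko 10-12 was lowest, and Npm3 had no counts in its library 11, against 5.69 and 6.07 CPM in libraries 10 and 12. Counting error alone allows up to 3 counts behind a 0, a limit that leaves out differences between libraries. The log2 fold change of Npm3 was -0.47 (95% interval -1.45 to 0.52, SE 0.42), and without sample Mt1ko 10-12 it was -0.10. Ncl encodes nucleolin, an abundant RNA-binding protein of the nucleolus (chromosome 1, 86344719 to 86359400, minus strand). It held 608, 419.9 and 538 CPM in the Mt1ko samples and 546, 485 and 512 CPM in the control samples. Its highest and lowest values were both in Mt1ko samples, and Ncl had a log2 fold change of 0.02 (SE 0.16, 95% interval -0.35 to 0.40). Nolc1 encodes Nopp140, a snoRNP chaperone, and its log2 fold change was -0.13 (SE 0.19).

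**Figure D2:**
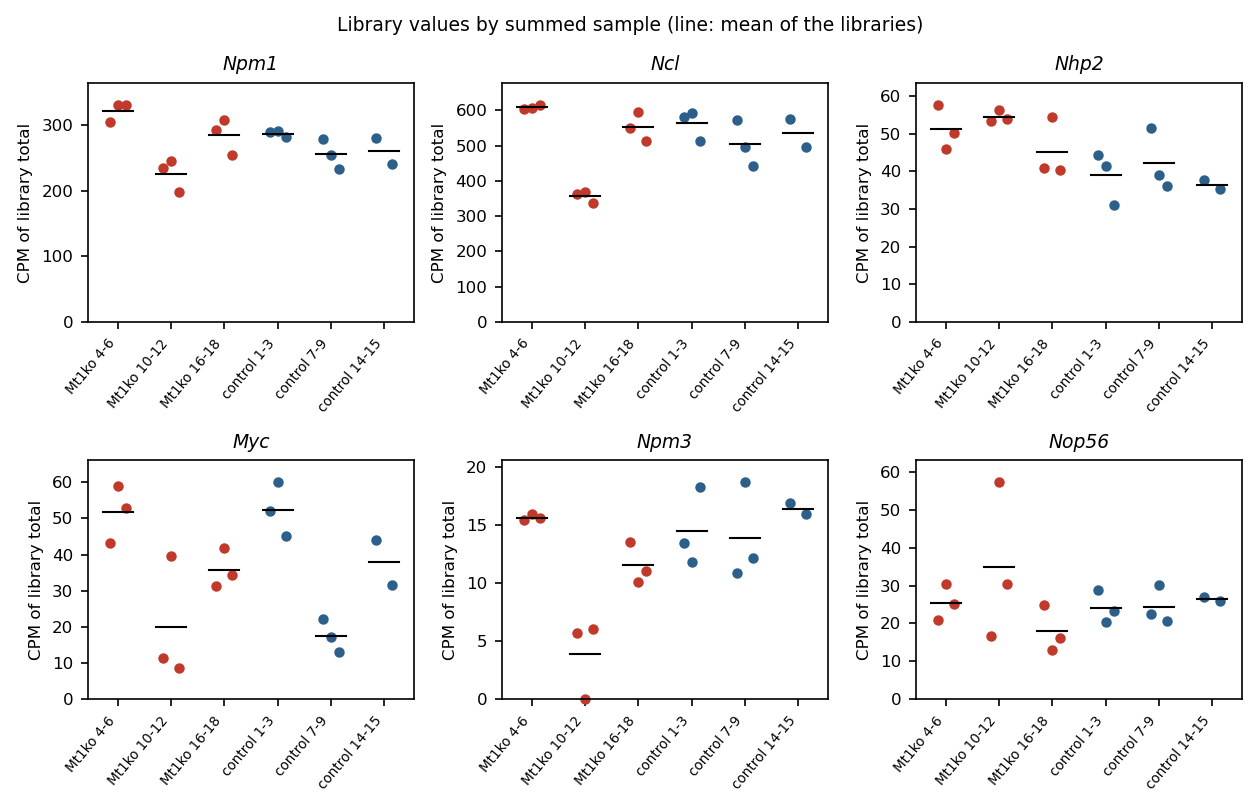
Library values of selected genes in CPM of the library total, by summed sample with Mt1ko samples on the left and control samples on the right. Points are libraries and lines are their means; in Npm1 the Mt1ko libraries span 198 to 331 CPM and the control libraries 233 to 290.0 CPM.

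The 4 proteins of the H/ACA snoRNP, which turns uridine into pseudouridine in ribosomal RNA and is also part of telomerase, had a median log2 fold change of 0.34. It was 0.21 without sample Mt1ko 10-12 and 0.16 with the 17 libraries and the sum as a random effect. Nhp2, a core protein of the particle (chromosome 11, 51619735 to 51623714, plus strand), held 51.1, 64.1 and 44.2 CPM in the Mt1ko samples and 37.5, 40.7 and 34.8 CPM in the control samples. Each Mt1ko sample was above each control sample, with means of 53.1 ± 10.1 CPM in Mt1ko and 37.7 ± 2.96 CPM in control. The log2 fold change was 0.50 (95% interval 0.10 to 0.89, SE 0.17; edgeR quasi-likelihood unadjusted p = 0.0213, adjusted p = 1). For Nhp2 the two-sided exact permutation p was 0.1, which is the lowest value possible with 3 samples in each group. The library values overlapped, at 40.4 to 57.7 CPM in Mt1ko and 30.9 to 51.5 CPM in control. Without sample Mt1ko 10-12 the log2 fold change of Nhp2 was 0.34, with library 6 left out it was 0.50, and with library totals in place of TMM scaling it was 0.36. The summed megakaryocyte and platelet markers were separated in the same direction, though the medians over that set overlapped. Their part in the Nhp2 values was not tested.

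Gar1, which joins the pseudouridine synthase in the same particle, held 11.3, 8.33 and 9.92 CPM in the Mt1ko samples and 7.68, 8.47 and 5.30 CPM in the control samples. Sample Mt1ko 10-12 fell inside the control range, and the log2 fold change was 0.46 (95% interval -0.24 to 1.16, SE 0.30). Nop10, the smallest of the core proteins, had a log2 fold change of 0.21 (SE 0.39) at 3.56 to 5.02 CPM. Dkc1 encodes dyskerin, the pseudouridine synthase itself, and its log2 fold change was -0.05 (SE 0.20). The core proteins of 1 particle thus differed in sign, and the differences between them were not tested.

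The box C/D snoRNP proteins, which carry out 2′-O-methylation of ribosomal RNA, had a median log2 fold change of 0.13. It was 0.040 without sample Mt1ko 10-12, 0.038 without control sample 7-9, 0.00089 with library totals and -0.063 without both of those samples. Fbl encodes fibrillarin, the methyltransferase, and held 57.8, 69.6 and 51.7 CPM in the Mt1ko samples and 61.6, 46.8 and 53.9 CPM in the control samples. Nop56, a scaffold of the particle, held 25.6, 41.9 and 17.1 CPM in the Mt1ko samples and 23.2, 23.4 and 25.3 CPM in the control samples. Its log2 fold change was 0.23 (SE 0.31) and was -0.17 without sample Mt1ko 10-12. Nop56 thus had both its highest and its lowest sample in Mt1ko, outside the range of the control samples. Nop58, the other scaffold, had a log2 fold change of 0.12 (SE 0.18), and Rrp9, which binds the U3 snoRNA, one of -0.08 (SE 0.22).

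Of the 5 genes of RNA polymerase I and its factors, 4 had a positive log2 fold change, with a median of 0.12. The median was -0.019 without sample Mt1ko 10-12, where Ubtf and Polr1b turned negative, -0.065 with the random effect and 0.017 with library totals. Ubtf, which bends and opens the ribosomal DNA promoter (chromosome 11, 102304560 to 102319742, minus strand), held 117, 164 and 115 CPM in the Mt1ko samples and 116, 125 and 113 CPM in the control samples. Sample Mt1ko 10-12 stood above the rest, the log2 fold change was 0.16 (SE 0.16), and without that sample it was -0.02. Polr1b, the second largest subunit, held 6.15, 10.8 and 4.82 CPM in the Mt1ko samples and 2.60, 9.15 and 6.29 CPM in the control samples. It was the most variable member, 4.15-fold higher in its highest sample than in its lowest, and its 95% interval of -0.96 to 1.498 was wide. Polr1c, a subunit shared with RNA polymerase III, held 8.93 to 9.84 CPM in the Mt1ko samples and 7.78 to 9.97 CPM in the control samples. The catalytic subunit Polr1a and the initiation factor Rrn3 had log2 fold changes of -0.04 (SE 0.17) and 0.12 (SE 0.21).

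Myc (chromosome 15, 61985391 to 61990374, plus strand) held 51.8, 24.1 and 35.1 CPM in the Mt1ko samples and 51.0, 17.1 and 36.3 CPM in the control samples. Each group had a high, a middle and a low sample, and the ranges of the groups overlapped almost throughout. The means were 37.0 ± 13.9 CPM in Mt1ko and 34.8 ± 17.0 CPM in control, and the log2 fold change was 0.09 (95% interval -0.87 to 1.05, SE 0.41). Without sample Mt1ko 4-6 it was -0.23, and without control sample 7-9 it was -0.24. Summed proliferation genes were 326, 225 and 247 CPM in the same Mt1ko samples and 301, 201 and 382 CPM in the control samples, and their part in the Myc values was not tested. Max held 41.1, 18.1 and 39.5 CPM in the Mt1ko samples and 40.7, 32.5 and 40.7 CPM in the control samples, a log2 fold change of -0.21 (SE 0.30).

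The canonical E-box CACGTG, the DNA word that MYC and MAX heterodimers bind best, was searched in RefSeq promoter windows of GRCm38.p6. A window runs over 250 bases before to 50 bases after a transcription start. The word is its own reverse complement, so 1 search covers both strands. Of the 38 genes, 33 matched the promoter table, and Bop1, Fbl, Myc, Npm1 and Rrp12 did not. The E-box stood in 9 of the 33 (27.3%), against 8.09% of all 27025 genes and 17.0% of 147 companion genes of the pathway. Promoters of these genes were also richer in CG dinucleotides, with a median of 22 per window against 7 over all windows. Over all windows that hold the word the median was 17, and the part of CG content in these shares was not tested. A match is a description of letters, and binding was not measured.

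The 10 E-boxes of these 9 genes, Max itself among them, are shown in capitals. The word does not tell which protein binds it, so it ties neither MYC nor MAX to these promoters. Each line runs 5′ to 3′ on the gene's own strand and is cut at the end of the window.
Ltv1, chr10:13193092-13193121, minus strand: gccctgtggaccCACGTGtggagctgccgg
Max, chr12:76962234-76962263, minus strand: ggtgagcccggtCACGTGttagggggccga
Mybbp1a, chr11:72441355-72441376, plus strand: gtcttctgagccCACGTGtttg
Nop2, chr6:125131811-125131840, plus strand: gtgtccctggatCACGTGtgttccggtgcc
Pes1, chr11:3963965-3963994, plus strand: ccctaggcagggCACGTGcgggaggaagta
Rrn3, chr16:13780472-13780501, plus strand: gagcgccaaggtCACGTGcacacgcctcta
Rrn3, chr16:13780639-13780668, plus strand: ttacgctctgctCACGTGggccgcgtcccg
Tsr1, chr11:74898092-74898121, plus strand: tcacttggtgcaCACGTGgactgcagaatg
Utp20, chr10:88826765-88826789, minus strand: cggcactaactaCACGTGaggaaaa
Wdr43, chr17:71616220-71616249, plus strand: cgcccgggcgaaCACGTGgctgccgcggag

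The flanking bases differ from gene to gene, and Rrn3 holds 2 sites. The log2 fold changes of these 9 genes ran over -0.36 for Ltv1 to 0.28 for Tsr1, so genes with the word had both signs.

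The 6 genes of the small subunit processome, the large particle that forms on the new precursor, had a median log2 fold change of -0.00, which was 0.083 without sample Mt1ko 10-12 and -0.11 with library totals. Nop14 was the steadiest member, with 77.6, 64.7 and 64.8 CPM in the Mt1ko samples and 73.9, 66.4 and 70.8 CPM in the control samples. Rrp12, which works in the maturation and export of both subunits, held 24.4, 20.01 and 24.6 CPM in the Mt1ko samples and 21.8, 23.8 and 22.8 CPM in the control samples. Mybbp1a, a nucleolar corepressor placed with this role, held 146, 107 and 124 CPM in the Mt1ko samples and 137, 122.6 and 122.9 CPM in the control samples. In all 3 the highest and the lowest sample were Mt1ko samples, so the control range lay inside the Mt1ko range. Utp20, Noc4l and Wdr43, also processome or nucleolar assembly factors, had log2 fold changes of 0.16, 0.20 and -0.01.

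Late maturation of the small subunit gave values of both signs. Ltv1, an assembly factor released before the subunit matures, held 37.9, 23.1 and 34.6 CPM in the Mt1ko samples and 44.5, 41.4 and 36.9 CPM in the control samples. The highest Mt1ko sample lay above the lowest control sample, and the log2 fold change was -0.36 (95% interval -0.85 to 0.12, SE 0.21). Of the members with a negative sign Ltv1 had the smallest p in the edgeR test, and its adjusted p was 1. Its log2 fold change was -0.17 without sample Mt1ko 10-12. Tsr1, a GTPase-like factor of the pre-subunit, held 40.4, 34.6 and 36.4 CPM in the Mt1ko samples and 40.4, 20.03 and 31.2 CPM in the control samples, and Nob1, the endonuclease of the last cut, had a log2 fold change of 0.11 (SE 0.24).

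Of the 10 large subunit assembly genes, 5 had a positive and 5 a negative log2 fold change, with a median of 0.01, or -0.095 with library totals. Pes1, Bop1 and Wdr12 form the PeBoW complex of precursor processing. Pes1 held 68.4, 58.4 and 54.8 CPM in the Mt1ko samples and 60.5, 54.6 and 55.6 CPM in the control samples, and Bop1 held 39.6, 31.4 and 38.8 CPM in the Mt1ko samples and 33.0, 27.01 and 35.1 CPM in the control samples. Their log2 fold changes were 0.09 (SE 0.14) and 0.21 (SE 0.17). Wdr12 held 20.7, 9.31 and 20.1 CPM in the Mt1ko samples and 21.8, 19.9999 and 20.5 CPM in the control samples, a log2 fold change of -0.31 (SE 0.31). Its low value was that of sample Mt1ko 10-12, without which the log2 fold change of Wdr12 was -0.022.

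Wdr74, also a large subunit assembly factor, gave the lowest log2 fold change of all members. It held 14.5, 5.396 and 10.1 CPM in the Mt1ko samples and 14.0, 14.2 and 13.6 CPM in the control samples. The control samples were close together while the Mt1ko samples spread over more than 2-fold, and the log2 fold change was -0.48 (95% interval -1.31 to 0.35, SE 0.36), or -0.18 without sample Mt1ko 10-12. Ddx21, an RNA helicase of RNA polymerase I transcription and rRNA processing, held 200.2, 144 and 171 CPM in the Mt1ko samples and 176, 135 and 160.2 CPM in the control samples. Its log2 fold change was 0.13 (SE 0.17). Nop2, an rRNA cytosine methyltransferase, had one of 0.18 (SE 0.15), with 47.2, 46.9 and 37.0 CPM in the Mt1ko samples and 40.6, 37.6 and 37.3 CPM in the control samples. Ppan, a Brix-domain assembly factor, held 26.7, 24.2 and 23.5 CPM in the Mt1ko samples and 29.1, 25.04 and 32.9 CPM in the control samples, at -0.23 (SE 0.17). Rrp1b held 28.8, 18.99 and 25.6 CPM in the Mt1ko samples and 29.6, 15.3 and 31.7 CPM in the control samples, which overlapped throughout. Nop16, another assembly factor, had a log2 fold change of 0.23 (SE 0.27), and Gnl3, which encodes nucleostemin, one of -0.07 (SE 0.20).

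The members varied from sample to sample within both groups. The highest sample was a median of 1.51-fold above the lowest, over 1.5-fold in 19 members and over 2-fold in 11, and the ratio ran over 1.199 for Nop14 to 4.15 for Polr1b. In 17 members the highest and the lowest sample belonged to the same group. Sample Mt1ko 4-6, which contains library 6, was the highest sample for 17 members (44.7%) and the lowest for 0 (0%). Over all genes these shares were 17.3% and 13.7%. Sample Mt1ko 10-12 was highest for 9 members (23.7%) and lowest for 14 (36.8%), against 27.6% and 40.4% of all genes. Sample Mt1ko 16-18 was highest for 1 (2.63%) and lowest for 8 (21.1%), against 10.1% and 9.10% of all genes. Control 1-3 was highest for 7 (18.4%) and lowest for 3 (7.89%), against 12.0% and 9.74%. Control 7-9 was highest for 0 (0%) and lowest for 10 (26.3%), against 20.1% and 14.8%. Control 14-15 was highest for 4 (10.5%) and lowest for 3 (7.89%), against 12.9% and 12.2%. Summed over the 38 genes, the samples held 2595, 2161 and 2239 CPM in Mt1ko and 2395, 2089 and 2232 CPM in control. The means of the sums were 2331 ± 231 CPM in Mt1ko and 2238 ± 153 CPM in control, a difference smaller than either SD. With library totals in place of TMM scaling the order turned, at 2249 ± 382 CPM in Mt1ko and 2336 ± 133 CPM in control.

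**Figure D3:**
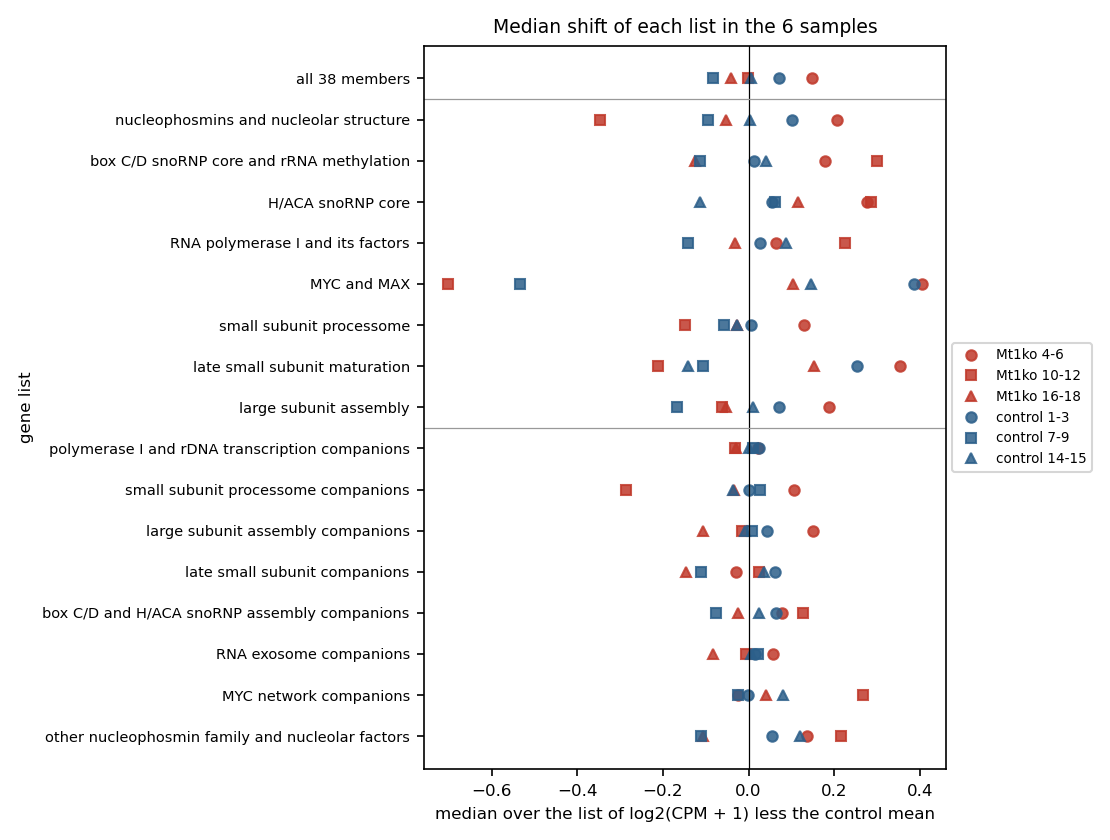
Median over each gene list of log2(CPM + 1) less the control mean, for the 3 Mt1ko and the 3 control samples. Over all 38 genes the medians are 0.15, -0.00 and -0.04 in Mt1ko samples 4-6, 10-12 and 16-18, and 0.07, -0.08 and 0.01 in control samples 1-3, 7-9 and 14-15.

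Libraries of 1 sample also differed. In sample Mt1ko 10-12 the SD of log2(CPM + 1) among its 3 libraries had a median of 0.50 over the members. It was 0.16 to 0.29 in the other 5 samples. Over 6939 well-expressed genes the same median was 0.47 in that sample and 0.13 to 0.22 in the others. The highest library was more than 2-fold above the lowest in 20 of 38 members there, in 0 of 38 in Mt1ko 4-6, 2 in Mt1ko 16-18, 3 in control 1-3, 8 in control 7-9 and 1 in control 14-15. The libraries listed at 0 for a member were libraries of sample Mt1ko 10-12, namely library 11 for Npm3 and library 12 for Nop10, Polr1b and Polr1c. The members' values in the sum of that sample therefore rest on libraries that did not agree closely, and their part in the differences was not tested.

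**Figure D4:**
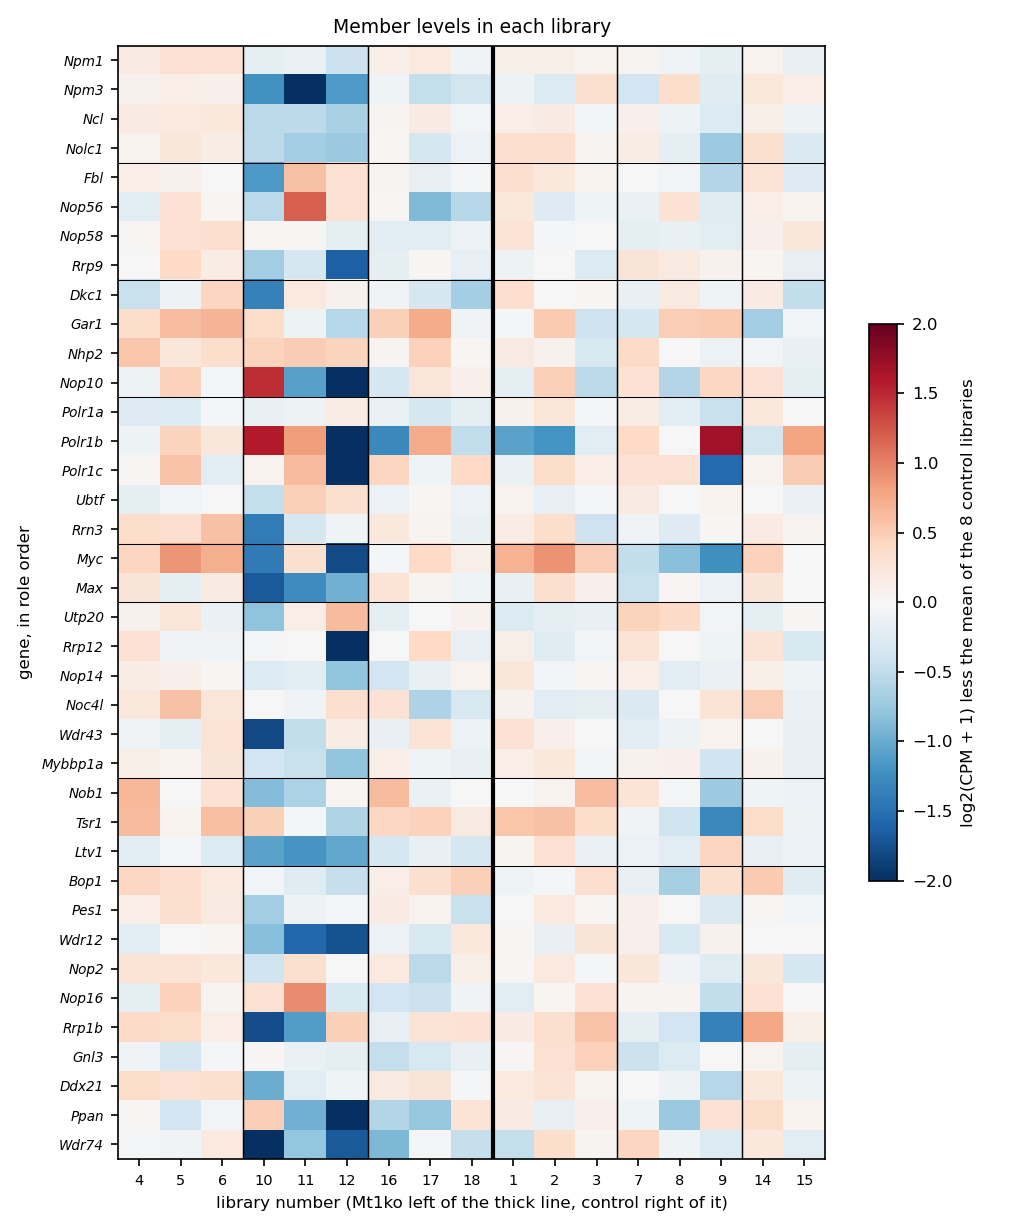
Each member in each of the 17 libraries, as log2(CPM + 1) less the mean of the 8 control libraries, with Mt1ko libraries left of the thick line and control libraries right of it; colours stop at 2 units in either direction. Libraries 10 to 12 hold the most uneven columns, with 20 of 38 members differing over 2-fold among them.

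The libraries carried 3 second index sequences, as the labels show. With the first, Npm1 averaged 322 CPM in 3 Mt1ko libraries and 279 CPM in 5 control libraries, and with the second 242 CPM in 4 Mt1ko libraries and 251 CPM in 3 control libraries. Of the 4 Mt1ko libraries with the second index, 3 were libraries 10 to 12, at 198 to 244 CPM of Npm1, and the other, library 16, held 292 CPM. Index and sample Mt1ko 10-12 therefore cannot be told apart in these means. All means by index are relative to library totals, without TMM scaling. With TMM scaling, sample Mt1ko 10-12 held 265 CPM of Npm1, inside the control range of 245 to 278 CPM. Its 24.1 CPM of Myc also lay inside the control range, of 17.1 to 51.0 CPM. Its 419.9 CPM of Ncl lay below the control range of 485 to 546 CPM. Nhp2 averaged 51.3 CPM in Mt1ko and 41.5 CPM in control with the first index, and 51.1 CPM in Mt1ko and 36.3 CPM in control with the second. Ncl averaged 609 CPM in Mt1ko and 552 CPM in control with the first, and 406 CPM in Mt1ko and 504 CPM in control with the second, where library 16 held 551 CPM and libraries 10 to 12 held 338 to 369 CPM. Myc averaged 51.7 CPM in Mt1ko and 39.4 CPM in control with the first, and 22.7 CPM in Mt1ko and 29.5 CPM in control with the second, where library 16 held 31.3 CPM. The third index was carried by 2 Mt1ko libraries alone, and no p is given over libraries because libraries of 1 sample are not independent.

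Per kilobase of exon, Npm1 stood highest of the 38, at 102 CPM per kilobase over the 6 samples. Ncl followed at 50.9, Nhp2 at 39.6, Ddx21 at 31.8 and Nop14 at 25.5 CPM per kilobase. The lowest were Rrp1b at 3.25, Wdr12 at 1.57 and Polr1b at 1.14 CPM per kilobase, and the highest was 89.5-fold above the lowest. Of the 37 pairs of neighbours in this order, 35 overlapped in the range of their 6 samples. Npm1 stood clear of Ncl, and Rrp1b clear of Wdr12, while Wdr12 and Polr1b overlapped. The order depends on the length used, which is the union of all annotated exons and can exceed that of the transcripts present. That length was 2665 bases for Npm1, 10188 for Ncl and 11955 for Wdr12. Before division by length Ncl was the higher, at 518 CPM over the 6 samples against 272 CPM for Npm1.

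**Figure D5:**
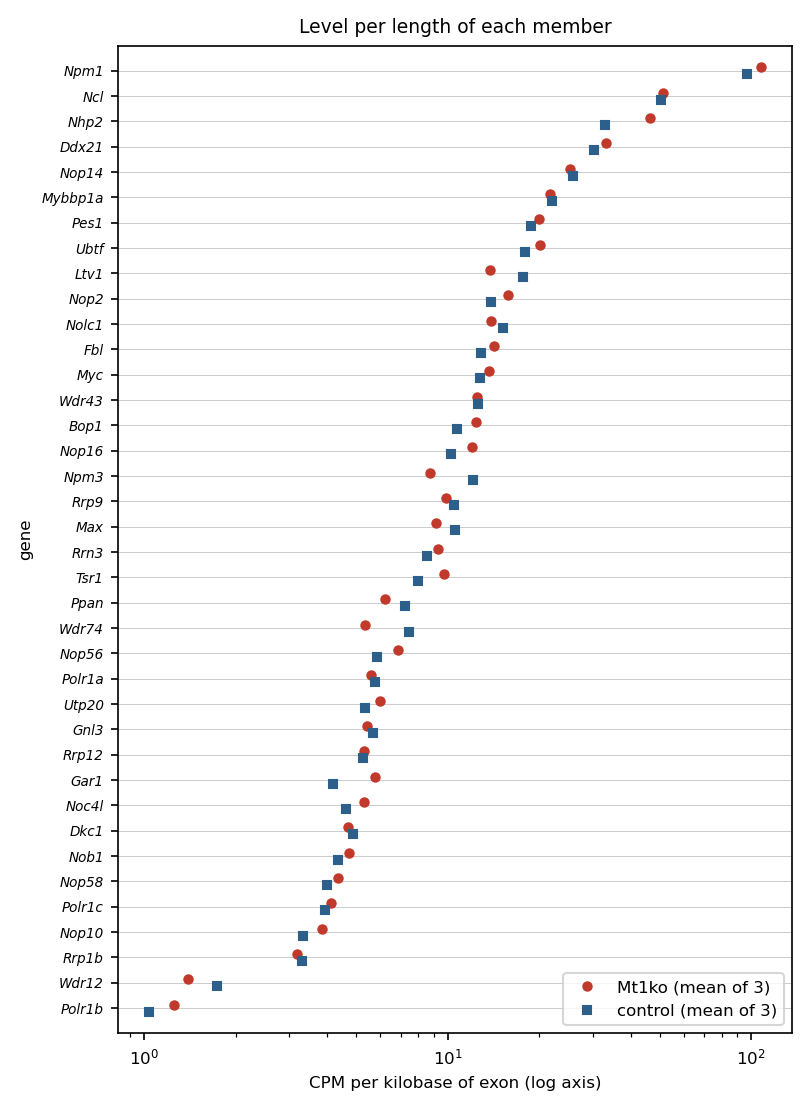
Level of each member per length, in CPM per kilobase of exon on a log axis, as the mean of 3 Mt1ko samples (circles) and of 3 control samples (squares). Npm1 is at 108 in Mt1ko and 96.5 in control, and the circle and the square of a gene lie close together beside the 89.5-fold range over the genes.

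Other genes of the pathway were read from lists of companions by function. Of 182 companion genes, 172 were in the table and 168 were tested. The edgeR quasi-likelihood test called 0 of the 168, DESeq2 and limma-voom called none of them either, and 2 had an unadjusted p under 0.05. In all, 81 had a positive and 87 a negative log2 fold change, with a median of -0.01. Of the 168, 5 (2.98%) had Mt1ko samples all above the control samples, against 2.74% of all genes. All below were 0 of them (0%), against 4.36% of all genes.

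Within the companion lists, small subunit processome genes were positive in 14 and negative in 28 of 42, with a median of -0.06, which was 0.026 without sample Mt1ko 10-12. Large subunit assembly genes were positive in 24 and negative in 21 of 45, with a median of 0.00. Genes of snoRNP assembly were positive in 10 and negative in 4 of 14, with a median of 0.069, which was -0.047 with library totals. RNA exosome genes were positive in 6 and negative in 10 of 16. Their median was -0.048, and it was 0.054 without sample Mt1ko 16-18. Mrto4, a factor of ribosomal stalk assembly, held 22.5, 23.4 and 21.5 CPM in the Mt1ko samples and 18.3, 16.3 and 16.1 CPM in the control samples, with a log2 fold change of 0.41 (SE 0.17; edgeR unadjusted p = 0.0419). Npm2, the oocyte-type nucleoplasmin relative, held 0.535, 6.49 and 0.870 CPM in the Mt1ko samples and 0.421, 0.203 and 0.490 CPM in the control samples, so its log2 fold change of 2.82 (SE 1.14) rests on sample Mt1ko 10-12. Mxd1, a MAX partner that opposes MYC, held 24.2, 64.3 and 26.3 CPM in the Mt1ko samples and 23.5, 26.6 and 23.8 CPM in the control samples, again highest in sample Mt1ko 10-12. Snhg6 and Gas5, RNA hosts of snoRNAs, had log2 fold changes of 0.67 (SE 0.33) and -0.23 (SE 0.14).

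The snoRNAs that these genes host were almost absent from the counts. Nop56, Nop58, Ncl, Gnl3, Wdr43, Ppan, Tsr1 and Dkc1, 8 of the 38 genes, held 23 annotated snoRNA genes within their span, of which 16 had 0 counts over all 17 libraries and none had more than 4. That count says only that these short RNAs were not detectable in this table. Exons of 15 members overlap an exon of a gene on the other strand, and the sources do not say whether the counting used strand, so reads of such pairs may be mixed.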

How the data were processed

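Total RNA of bone marrow was made into libraries with a SMARTer stranded total RNA kit of the Pico type, per the labels' protocols. Trimmomatic 0.35 and RSEM 1.3.3 were used, per the submitters' processing notes, on GRCm38 (also called mm10). No source used here gives the aligner or the strand setting. The deposited tables hold unnormalized whole counts for each gene, as the authors made them, for 17 libraries and for 6 sums of libraries. Each sum equalled its libraries, with 0 genes differing. Groups came from the sample titles, and library 13 of the numbering was not analysed here.

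The 6 sums entered edgeR 4.0.16 (R 4.3.3) with group as the sole term, after filterByExpr and TMM scaling, and a quasi-likelihood F test was run with Benjamini-Hochberg adjustment over all 16666 tested genes at 0.05. Standard errors are the log2 fold change over the root of F. Library CPM are relative to all counts of the library. Levels per kilobase use the union of GENCODE vM21 exons. The script was tested on simulated counts. Alternatives were RLE, upper quartile and no scaling, other filters, the 17 libraries singly or with the sum as a random effect, DESeq2 1.42.0, limma-voom (limma 3.58.1), removal of mitochondrial genes, of library 6 or of single samples; 2 combinations of left-out samples were chosen after seeing the data. Intervals cover counting error and the spread of these samples, and the limit of a count of 0 covers counting error alone.

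The members, lists and tests were chosen with earlier results of these data known. Genes described in most detail were Npm1, Myc, the 5 smallest p in each direction, the 5 highest and 3 lowest per kilobase, the 4 most and least variable and the most abundant of each role; the remaining members are given briefly. Of each companion list the 2 smallest p and the most abundant gene could be named.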

Additional observations from a re-analysis of the deposited data

Results flagged for a closer look

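Each member was examined over the 9 Mt1ko libraries and over the 8 control libraries, 76 groups in all, for a single library standing away from the remainder. Of these, 5 groups held one, and chance gives about 1 in 20 for independent values, which libraries of 1 sample are not. Nop56, the box C/D scaffold, held 57.45 CPM in Mt1ko library 11, with 30.57 CPM in the next. Nop10 of the H/ACA particle held 11.95 CPM in Mt1ko library 10, with the next at 5.419 CPM. Rrp12 was low in Mt1ko library 12, at 4.238 CPM, with the next lowest at 20.75 CPM. Polr1c was listed at 0 CPM in the same library, with the next lowest at 6.961 CPM. Polr1b held 18.74 CPM in control library 9, with the next at 9.668 CPM. Of the 5 values, 4 came from libraries 10 to 12. These libraries also had the highest shares of mitochondrial ribosomal RNA and the fewest genes with a count. The part of either in these values was not tested.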

How the results depend on the processing

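In each of the 19 alternatives, 0 of the 38 members were called. Over all genes, edgeR called 0, and 1 gene was called with 17 libraries singly (Mt1), with the sum as a random effect (Mt1), by DESeq2 (Mt1), with library 6 left out (Mt1), with library 6 and sample Mt1ko 10-12 left out (Mt1), and with samples Mt1ko 10-12 and control 7-9 left out (mt-Co3). The members' median log2 fold change of 0.09 was -0.018 with library totals, where the median of all genes was -0.12, and -0.0037 with the random effect; leaving out 1 sample gave -0.022 to 0.11. The sign held in all 19 alternatives for 14 members, 9 positive (Npm1 and Nhp2 among them) and 5 negative (Npm3, Ltv1, Ppan, Wdr12 and Wdr74).

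The sign turned in at least 1 alternative for 24 members, and the cause was not tested. The 12 of them described in most detail come first. With library totals Ncl was -0.082, Pes1 -0.027, Polr1c -0.047 and Rrp12 -0.098, and with upper quartile scaling Ncl was -0.0034 and Rrp12 -0.014. With 17 libraries singly Rrp12 was -0.0088 and Rrp1b 0.0079, and with the random effect Polr1b was -0.33, Polr1c -0.48 and Rrp12 -0.065. By limma-voom Rrp1b was 0.051. With library 6 and sample Mt1ko 10-12 left out Mybbp1a was 0.057, Nop14 0.043, Nop56 -0.15, Polr1b -0.13, Rrp1b 0.14 and Ubtf -0.038. With samples Mt1ko 10-12 and control 7-9 left out Fbl was -0.081, Mybbp1a 0.052, Myc -0.012 and Nop56 -0.19. Leaving out 1 sample gave ranges of -0.14 to 0.086 for Mybbp1a, -0.24 to 0.47 for Myc, -0.10 to 0.16 for Ncl, -0.12 to 0.019 for Nop14, -0.17 to 0.49 for Nop56, -0.0099 to 0.16 for Pes1, -0.13 to 0.71 for Polr1b, -0.020 to 0.15 for Polr1c, -0.039 to 0.11 for Rrp12, -0.33 to 0.12 for Rrp1b and -0.019 to 0.25 for Ubtf. Among the other 12, Nop58 was -0.0088 with library totals and Nop10 -0.54 with the random effect. With library 6 and sample Mt1ko 10-12 left out Max was 0.067, Nolc1 0.0035, Nop16 -0.039, Rrp9 0.12 and Wdr43 0.0049. With samples Mt1ko 10-12 and control 7-9 left out Nop16 was -0.14, Nop58 -0.045, Rrp9 0.18 and Wdr43 0.028. Leaving out 1 sample turned Dkc1, Gnl3, Max, Nob1, Nop16, Polr1a, Rrn3, Rrp9 and Wdr43 in 1 or more cases, to values between -0.11 and 0.10.

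No paired analysis was possible because the groups share no replicate number in the labels. The 95% interval reached 1.23 log2 units to either side in Polr1b and 0.92 in Nop10, against 0.30 in Npm1 and 0.38 in Ncl. Library 12, with 29964581 counts, listed Polr1b and Nop10 at 0. Library 10, with 30043030 counts, held 17.5 CPM of Polr1b and 11.95 CPM of Nop10. The part of depth in these intervals was not tested.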
